A study of Drosophila melanogaster with 3 samples.

Results

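The large subunit ribosomal protein genes of Drosophila melanogaster were examined for binding of the zinc finger protein CG6254 in whole embryos. Members were the protein-coding genes of the Ensembl annotation whose symbol is RpL followed by digits and an optional letter, together with RpLP0, RpLP1 and RpLP2, and mitochondrial genes (mRpL) were not taken. The rule uses names alone, although the family was chosen with earlier results of these data known. It found 48 of the 13945 protein-coding genes on the 6 main chromosome arms. It leaves out RpL37-1 and RpL37-2, whose symbols carry a hyphen, and the genes RpL7-like, RpL22-like, RpL24-like and RpLP0-like, which are described after the members.

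The data were chromatin immunoprecipitations followed by sequencing from 1 group of 3 biological replicates. All came from 1 transgenic line that stably expresses CG6254 fused at its C-terminus to green fluorescent protein (GFP), and the tagged protein was recovered with an antibody against GFP. The embryos were of both sexes, were collected at 0 to 14 h and carried the transgene in every replicate, so that binding is an average over all tissues and stages of that span. Chromatin was sheared by sonication to 200 to 800 bp, which limits how closely a summit can place the protein. No untagged or untreated sample is compared here, and the comparisons are among genes and among replicates.

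The large subunit of the cytosolic ribosome joins amino acids into protein, and its ribosomal proteins hold the ribosomal RNA in shape, line the exit tunnel and form the stalk that recruits translation factors. The genes for these proteins are needed in every growing cell, are transcribed at high rates, and their products are needed in matched amounts. In Drosophila, transcription of most of them begins within a run of pyrimidines, the polypyrimidine (TCT-type) initiator, in place of the initiator that most other genes use. In flies a lowered dose of many ribosomal proteins gives the Minute phenotype, with slow growth and thin bristles.

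On the dm6 build, 4426 peaks made up the authors' IDR list, which keeps peaks by the irreproducible discovery rate between replicates, and each replicate and the pooled replicates had a relaxed list of 30000 peaks. In each list, peaks were ranked by the deposited signal with rank 1 as the strongest. Since the lists come without read counts, the replicates' depth is unknown. A gene was called bound where the summit of a peak, its highest point, lay within 500 bp of any annotated transcription start site (TSS) of the gene. The IDR peaks were exactly the 4426 strongest pooled peaks, and the same number was taken from the top of each replicate's list.

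The promoters of 10 members show what lies under the summits and what bound and unbound members share. Each line covers 110 bases before to 20 after a start site, read 5′ to 3′ on the gene's strand from the RefSeq copy of the dm6 assembly. Capitals mark the run of pyrimidines at the start and any match to 4 of the motifs searched, which are TATCGATA, GGTCACAC, AACAGCAC and CCACACT. The first 6 genes were bound and the last 4 were not.
RpL14 (chr3L:8600896-8601026, plus strand): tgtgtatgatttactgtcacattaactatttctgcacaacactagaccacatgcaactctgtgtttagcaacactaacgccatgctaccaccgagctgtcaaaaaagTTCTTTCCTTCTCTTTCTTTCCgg
RpL8 (chr3L:2587346-2587476, plus strand): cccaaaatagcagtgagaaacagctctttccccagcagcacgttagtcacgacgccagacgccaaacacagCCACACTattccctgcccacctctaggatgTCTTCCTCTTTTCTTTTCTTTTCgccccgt
RpL34a (chr3R:26059247-26059377, minus strand): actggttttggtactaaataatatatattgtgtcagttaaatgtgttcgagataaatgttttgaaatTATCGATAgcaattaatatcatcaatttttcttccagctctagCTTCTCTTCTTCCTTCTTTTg
RpL27 (chr3R:25685031-25685161, minus strand): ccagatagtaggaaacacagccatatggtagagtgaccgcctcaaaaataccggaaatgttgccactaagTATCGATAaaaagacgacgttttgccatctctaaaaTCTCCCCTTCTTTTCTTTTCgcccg
RpLP1 (chr2L:419842-419972, plus strand): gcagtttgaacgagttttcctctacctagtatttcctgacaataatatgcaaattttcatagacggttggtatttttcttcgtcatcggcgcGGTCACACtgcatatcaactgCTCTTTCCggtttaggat
RpL35A (chr3R:5467081-5467211, minus strand): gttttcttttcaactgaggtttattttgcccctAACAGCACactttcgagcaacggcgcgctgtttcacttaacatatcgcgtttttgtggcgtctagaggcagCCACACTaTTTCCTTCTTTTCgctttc
RpL32 (chr3R:30046141-30046271, minus strand): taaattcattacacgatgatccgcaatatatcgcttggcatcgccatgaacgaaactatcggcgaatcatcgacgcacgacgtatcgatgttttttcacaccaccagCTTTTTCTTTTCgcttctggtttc
RpL40 (chr2L:4227589-4227719, plus strand): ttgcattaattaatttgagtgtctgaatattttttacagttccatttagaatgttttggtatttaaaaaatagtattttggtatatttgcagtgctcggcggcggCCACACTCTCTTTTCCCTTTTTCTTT
RpL10Ab (chr3L:11822741-11822871, plus strand): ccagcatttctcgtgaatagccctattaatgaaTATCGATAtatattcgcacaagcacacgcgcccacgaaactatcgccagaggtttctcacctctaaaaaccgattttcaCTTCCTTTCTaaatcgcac
RpL10Aa (chr3R:15037256-15037386, plus strand): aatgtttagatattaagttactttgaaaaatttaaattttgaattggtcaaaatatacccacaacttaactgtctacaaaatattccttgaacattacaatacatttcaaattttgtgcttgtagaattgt
The bound RpL14 and RpL8 had pyrimidine runs of 22 and 23 bases that crossed the start site, with summits 5 bp upstream and 8 bp downstream of it. Among the unbound members, RpL40 and RpL32 had runs of 22 and 12 bases, so this feature was present on both sides of the call. In RpL40 the run overlaps the end of CCACACT. RpL10Aa had no run and no match to these motifs in the stretch shown. RpL34a and RpL27, both bound, and RpL10Ab, not bound, held TATCGATA upstream of the run.

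In the IDR list, 37 of the 48 large subunit genes were bound, 77.1% of them, with an exact (Clopper-Pearson) 95% interval of 62.7% to 88.0%. The background was 14.8% of all protein-coding genes (2064 of 13945), and 14.6% of those outside the large subunit (2027 of 13897). This interval takes the genes as independent draws within 1 list and covers counting error only. It does not measure the spread over replicates, and no test of the difference was made. Among the strongest 4426 peaks of each replicate, 40 members were bound in replicate 1 (83.3%, against 16.4% of all protein-coding genes), 34 in replicate 2 (70.8%, against 16.0%) and 26 in replicate 3 (54.2%, against 12.6%). The members' share was above that of all genes in each replicate, and replicate 3 held the fewest members. In every replicate at once, 25 members were bound (52.1%), against 8.88% of all protein-coding genes. With only the IDR peaks that recur in both other replicates when 1 is left out, 25 members were bound without replicate 1 (against 9.66% of all protein-coding genes), 26 without replicate 2 (against 9.42%) and 34 without replicate 3 (against 10.9%).

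**Figure D1:**
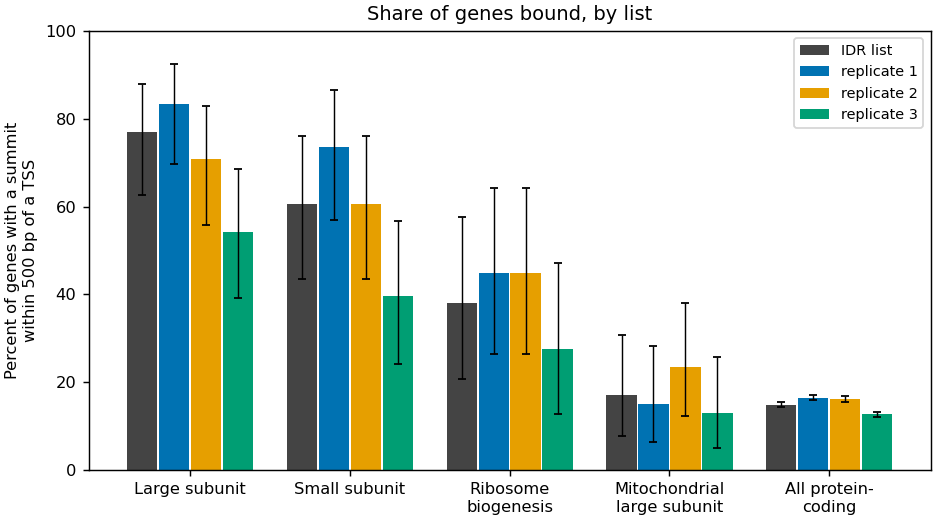
Percent of genes bound (y axis) in the IDR list and in the strongest 4426 peaks of replicates 1, 2 and 3, for the large subunit (48 genes), the small subunit (38), ribosome biogenesis (29, with Rrp1), the mitochondrial large subunit (47) and all protein-coding genes (13945). Bars are shares and error bars exact 95% intervals, which cover counting error only. The large subunit bars run from 54.2% to 83.3%, and those of all genes from 12.6% to 16.4%.

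The whole relaxed lists, which mix peaks with background by design, held a summit near 44 members when pooled (91.7%, against 43.0% of all protein-coding genes). They held one near 44 members in replicate 1 (against 48.3%), 43 in replicate 2 (against 48.4%) and 40 in replicate 3 (against 37.4%). Most members without an IDR peak thus had a weaker entry, and their ranks are given with the unbound genes. By chromosome arm, the bound members were 8 of 12 on 2L, 10 of 11 on 2R, 6 of 10 on 3L, 8 of 10 on 3R and 5 of 5 on X, and no member lies on chromosome 4. The share of all protein-coding genes bound on each arm is not given here, so no difference between arms can be read from these counts.

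Most bound members ranked among the stronger IDR peaks, with none at the very top. Their IDR ranks ran from 448 to 4358 with a median of 1194, against a median of 1953 for all bound protein-coding genes. None of the 37 was among the strongest 10% of IDR peaks, where 15.4% of bound protein-coding genes lay, and 27 (73.0%) were among the strongest 2213 peaks, against 55.9%. The deposited signals, the authors' values from the pooled list on a scale that is not stated, ran from 148.864 to 567.26 with a median of 339.367, against a median of 247.163. Peak widths at members were close to those at all bound protein-coding genes. The most frequent width of the list, 416 bp, was that of 28 members (75.7%, against 73.4%). Narrower peaks lay at 9 (24.3%, against 22.5%) and wider ones at 0 (against 4.02%).

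The members of best rank include parts of several regions of the subunit. RpL7 (FBgn0005593) had IDR rank 448 and ranks of 152, 1096 and 825 in replicates 1, 2 and 3. Its peak lay on 2L from 10200952 to 10201141 with the summit at 10201055, in the 5′ UTR that begins at its first TSS. RpL14 (FBgn0017579), a protein found in eukaryotes and archaea but not in bacteria, had IDR rank 528 and replicate ranks of 285, 486 and 1085, with a peak on 3L from 8600964 to 8601076 and its summit at 8601001, upstream of the gene. RpL41 (FBgn0066084), a very short peptide at the face toward the small subunit, had IDR rank 551 and replicate ranks of 222, 596 and 1046. In all 3 genes replicate 1 gave the strongest rank of the 3 replicates. RpL30 (FBgn0086710), which binds a kink-turn in RNA, had IDR rank 606 and replicate ranks of 432, 404 and 1742. RpL24 (FBgn0032518), which forms a bridge to the small subunit, had IDR rank 617 and replicate ranks of 276, 724 and 1302. For RpL30 replicates 1 and 2 lay close together and replicate 3 was weaker.

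RpL8 (FBgn0261602), which lies near the site of peptide bond formation, had IDR rank 667 and replicate ranks of 345, 857 and 1109. RpL34a (FBgn0039406) had IDR rank 709 and replicate ranks of 408, 778 and 969. RpL23A (FBgn0026372), which sits at the mouth of the exit tunnel, had IDR rank 774 and replicate ranks of 474, 584 and 2007. The order of replicates 1, 2 and 3 by strength was the same in these 3 genes. RpLP0 (FBgn0000100), the base of the stalk, had IDR rank 896 and replicate ranks of 394, 1266 and 1631. RpL13 (FBgn0011272) had IDR rank 935 and replicate ranks of 375, 965 and 1377. RpL34b (FBgn0037686) had IDR rank 946 and replicate ranks of 716, 696 and 1341. Each of these genes was bound in each replicate.

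That order of the replicates ran through the bound members. The median rank of the 37, with absent genes taken as last, was 720 in replicate 1, 1517 in replicate 2 and 2474 in replicate 3, against 1864, 1970.5 and 2146 for all bound protein-coding genes in the same replicates. Replicate 1 ranked the gene better than replicate 3 in 36 of 37 members (97.3%), against 54.2% of bound protein-coding genes, the exception being RpL36 with ranks of 2918 in replicate 1 and 2671 in replicate 3. It ranked the gene better than replicate 2 in 29 of 37 (78.4%), against 1031 of the 2064 bound protein-coding genes. Replicate 2 ranked the gene better than replicate 3 in 32 of 37 (86.5%), against 55.6%. The medians of the small subunit genes had the same order, with 1011, 2195 and 3383, and 22 of 23 of them ranked better in replicate 1 than in replicate 3. The depth and quality of the replicates are unknown, and their part in this was not tested.

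**Figure D2:**
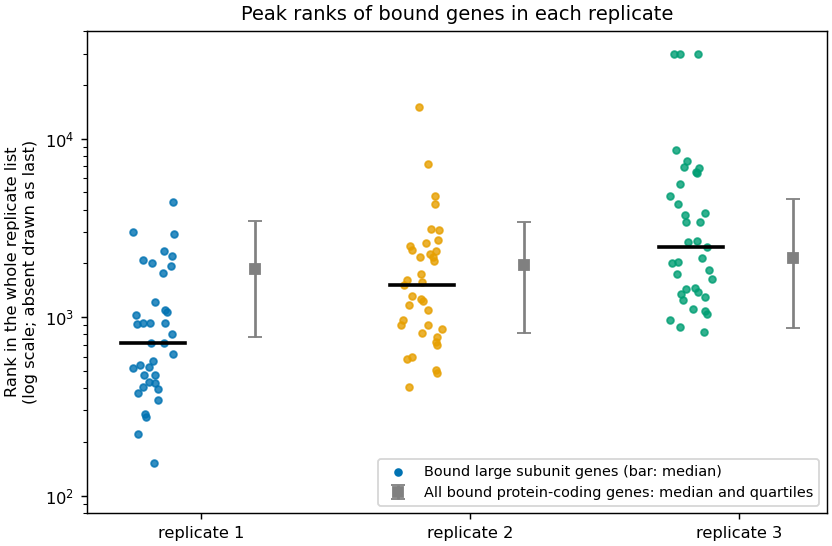
Rank in the whole replicate list (y axis, log scale, low is strong) of the 37 bound large subunit genes in replicates 1, 2 and 3, with black bars at the medians of 720, 1517 and 2474, and beside them the median and quartiles of all 2064 bound protein-coding genes in grey. Genes absent from a list are drawn as last. The members' medians spread further over the replicates than the grey medians of 1864, 1970.5 and 2146.

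The proteins of the stalk and of its base were all bound in the IDR list, at very different ranks. RpLP0, the scaffold, ranked far ahead of the acidic proteins it carries. RpLP1 (FBgn0002593) had IDR rank 3523, ranks of 1928 and 3095 in replicates 1 and 2, and no entry in replicate 3. RpLP2 (FBgn0003274) had IDR rank 4358, the last of all bound members, with replicate ranks of 2993, 15060 and 5601. RpL12 (FBgn0034968), which sits under the stalk with RpLP0, had IDR rank 2531 and replicate ranks of 2200, 2185 and 4795. RpL9 (FBgn0015756), a neighbour of the stalk base, had IDR rank 1837 and replicate ranks of 922, 1611 and 4279. RpLP0 and RpL9 were bound in all 3 replicates, RpLP1 and RpL12 in 2 and RpLP2 in 1.

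RpL5 and RpL11 bind the 5S ribosomal RNA as a pair, and the IDR list held a peak at RpL11 but not at RpL5. RpL11 (FBgn0013325) had IDR rank 990 and replicate ranks of 568, 1231 and 1465. RpL5 (FBgn0064225) had pooled rank 7560 and replicate ranks of 4070, 15307 and 16751, so that replicate 1 alone put it among its strongest 4426 peaks.

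Proteins that reach toward the catalytic centre or line the exit tunnel were bound at ranks across the list. RpL3 (FBgn0020910), near the catalytic centre, had IDR rank 2446 and replicate ranks of 914, 4293 and 6870. RpL4 (FBgn0003279), which reaches into the tunnel, had IDR rank 1763 and replicate ranks of 932, 2355 and 2622. RpL17 (FBgn0029897), also of the tunnel, had IDR rank 1675 and replicate ranks of 924, 2613 and 2474. Replicate 1 ranked all 3 well ahead of the other replicates. Around the tunnel's mouth, RpL23A had rank 774, RpL31 (FBgn0285949) 1063, RpL19 (FBgn0285950) 1065 and RpL35 (FBgn0029785) 2859 in the IDR list. RpL26 is the tunnel mouth protein that was not bound. RpL23 (FBgn0010078), part of the surface that the anti-association factor eIF6 occupies, had IDR rank 2309 and replicate ranks of 2356, 2167 and 3856.

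The other bound members had IDR ranks from 949 to 4180. RpL22, RpL13A, RpL28, RpL37A and RpL27A had IDR ranks of 949, 1031, 1072, 1194 and 1492, and all 5 were bound in every replicate. RpL18 (1668) and RpL35A (1814) were strong in replicates 1 and 2, with ranks of 1063 and 2368 for RpL18 and 1999 and 1748 for RpL35A, and were absent from replicate 3. RpL36 had IDR rank 1808 and was bound in every replicate. RpL27 (2200), RpL39 (2413) and RpL6 (4180) were bound in replicates 1 and 2 alone, and their ranks in replicate 3 were 8695, 6389 and 6488. RpL7A (2440) was bound in replicate 1 alone, with ranks of 1024, 4778 and 6933. RpL38 (2917), known in mice for its part in translation of Hox messages, was bound in replicates 1 and 3 and ranked 7237 in replicate 2. RpL12 and RpL39 lie tail to tail on 2R and share their last bases, yet each start site had a peak of its own.

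**Figure D3:**
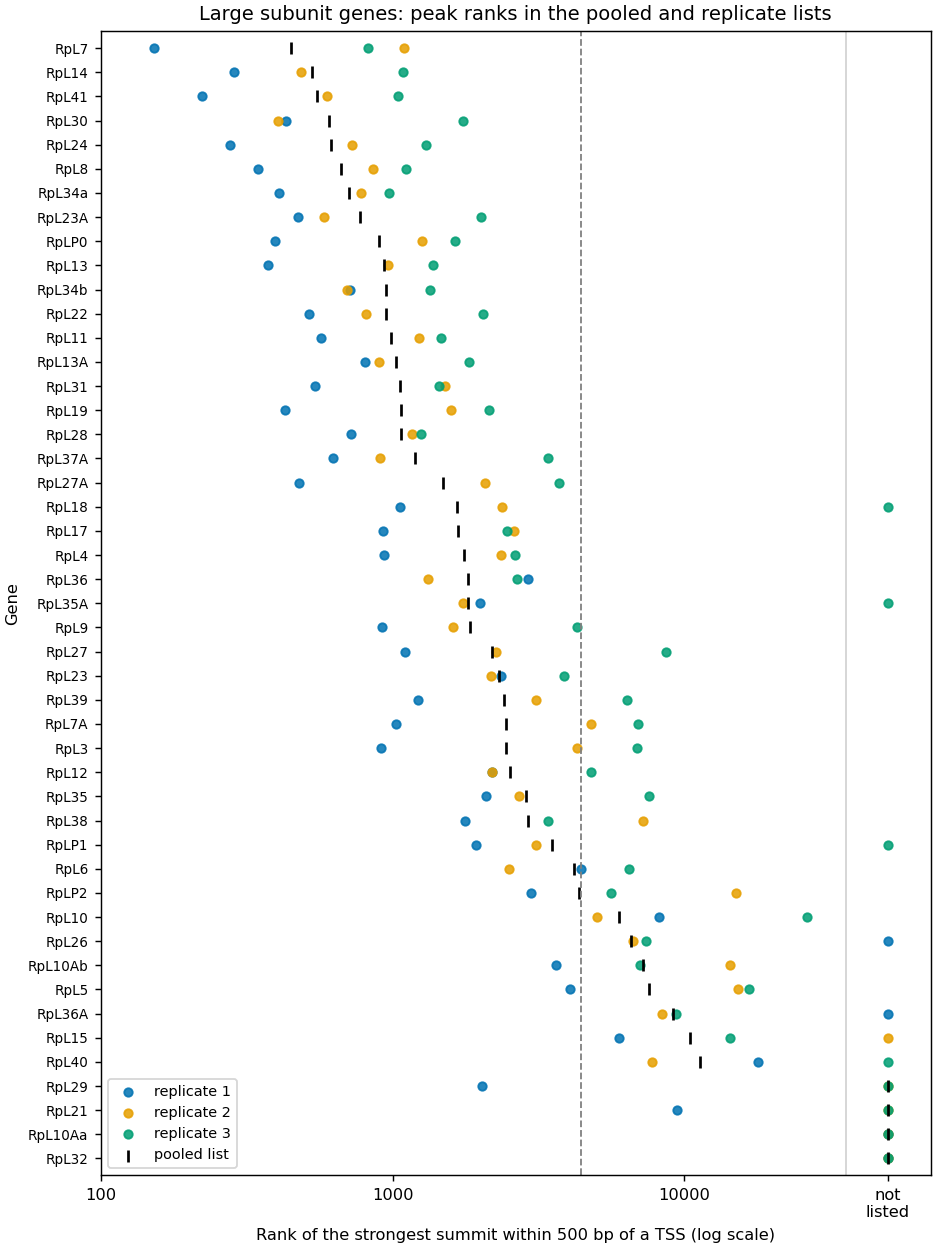
Rank of the strongest summit within 500 bp of a TSS (x axis, log scale, low is strong) for 47 of the 48 large subunit genes (y axis) in replicates 1, 2 and 3 (coloured points) and in the pooled list (black ticks). The dashed line is rank 4426, and the right column marks genes with no summit in that list. Blue points of replicate 1 lie left of the green points of replicate 3 in all bound genes drawn except RpL36.

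At the edge of the IDR list, the last members inside were RpL6 at rank 4180 and RpLP2 at 4358, and the first outside were RpL10 and RpL26 at pooled ranks of 5997 and 6564. RpL10 (FBgn0024733), which joins the subunit late and completes the tRNA passage, had replicate ranks of 8199, 5041 and 26281. RpL26 (FBgn0036825) was absent from replicate 1 and ranked 6687 and 7381 in replicates 2 and 3. Both were outside the strongest 4426 peaks in each replicate. The same held for RpL36A (FBgn0031980), with pooled rank 9191, no entry in replicate 1 and ranks of 8391 and 9349 in replicates 2 and 3. RpL15 (FBgn0028697), at pooled rank 10441, had ranks of 5997 and 14322 in replicates 1 and 3 and none in replicate 2. RpL40 (FBgn0003941), which is made as a fusion to ubiquitin, had pooled rank 11354, ranks of 17900 and 7742 in replicates 1 and 2 and none in replicate 3.

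Among the 11 unbound members, 3 were bound in 1 replicate, and it was replicate 1 each time. These were RpL5, already given, RpL10Ab and RpL29. RpL29 (FBgn0016726) had rank 2018 in replicate 1 and no entry in the pooled list or in the other replicates. RpL21 (FBgn0032987) was listed at rank 9430 in replicate 1 and in no other list. RpL10Aa and RpL32 had no summit within 500 bp of a start site in any list. No IDR summit lay in the body of any member more than 500 bp from its start sites. From the unbound members other than RpL32, the nearest IDR summit lay 2092 bp away at RpL26, 4621 bp at RpL40, 7938 bp at RpL36A, 13469 bp at RpL5 and 42470 bp at RpL29. It lay 50429 bp away at RpL10Aa, 94415 bp at RpL21, 126222 bp at RpL10Ab and 150068 bp at RpL10, and at RpL15, which lies far toward the centromere end of 3L, it was 4321852 bp away.

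RpL32 (FBgn0002626), whose transcript is a common reference in fly expression work, stood beside a very strong peak. The IDR peak of rank 5, on 3R from 30045958 to 30047118, was 1161 bp wide and held the RpL32 start site at 30046161. Its summit at 30046681 lay 520 bp from the nearest RpL32 start, just outside the 500 bp window, and the nearest start to it was that of CG7943. The starts of RpL32 and CG7943 face away from each other 309 bp apart. RpL32 is therefore counted as unbound by the summit and would be counted as bound by the interval or with a window of 1000 bp. On the inside of the window, the farthest bound member was RpL34b at 145 bp, so no member lay between these distances.

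Paralogs were alike in some cases and differed in others. RpL34a and RpL34b were both bound in every replicate, with IDR ranks of 709 and 946. RpL10Ab (FBgn0036213) had pooled rank 7226 and replicate ranks of 3621, 14333 and 7056, and RpL10Aa (FBgn0038281), which also encodes the protein of the L1 stalk, was in no list. RpL7 was bound, and RpL7-like fell just outside with pooled rank 4579, ranks of 3005 and 1966 in replicates 1 and 2, no entry in replicate 3 and a summit at -366 from the start. RpL22 and RpL24 were bound, while RpL22-like was in no list and RpL24-like had pooled rank 29057. RpL37-1 had rank 1535 in replicate 1 and 8504 in the pooled list, and RpL37-2 was in no list. RpLP0-like was listed in replicate 2 alone, at rank 7186. None of these 6 genes outside the naming rule was bound in the IDR list. How reads that match more than 1 copy were treated is not stated, so values at paralogs are uncertain.

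Summits at the bound members lay close to the start site. The median position was 9 bp upstream (a signed value of -9), with quartiles of -45 and 1 and a range of -145 to 51, against a median of -137 for all bound protein-coding genes. The median distance was 18 bp against 154.5 bp. Within 25 bp of the start lay 23 of the 37 summits (62.2%), against 6.73% of those of bound protein-coding genes, and within 50 bp lay 28 (75.7%), against 13.4%. Within 100 bp lay 36 (97.3%), against 28.2%. The large subunit supplied 23 (16.5%) of the 139 bound protein-coding genes with a summit within 25 bp, and the small subunit 8 (5.76%). Closeness to the start was not particular to the large subunit. Of the 23 bound small subunit genes, 34.8% had a summit within 25 bp, 65.2% within 50 bp and 87.0% within 100 bp. By annotation, 18 summits were in a 5′ UTR, 18 were upstream of the gene and 1, at RpL35, was in an intron.

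**Figure D4:**
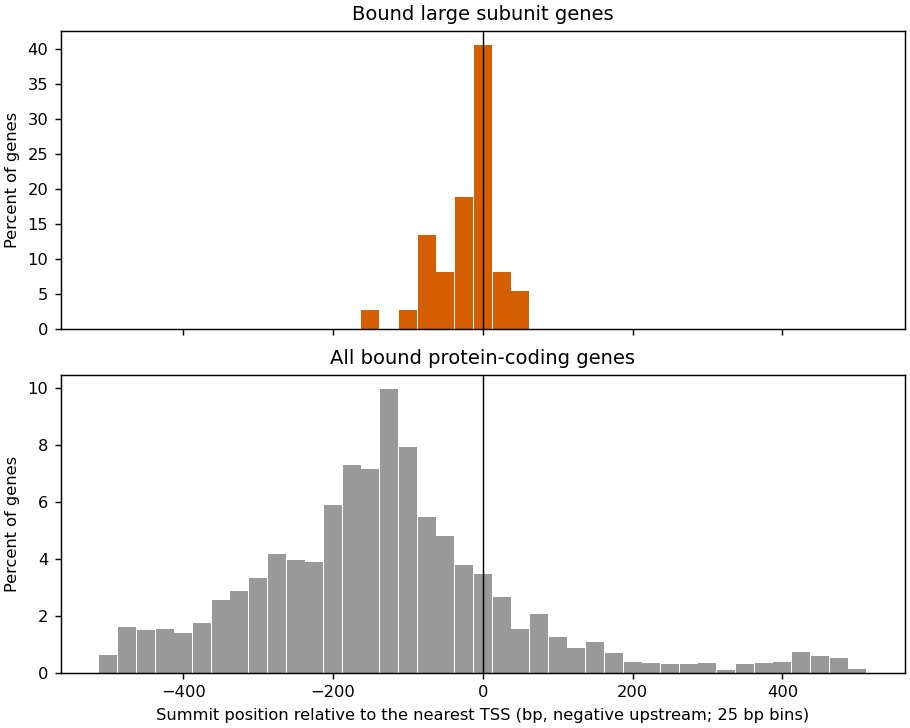
Percent of genes (y axes, which differ in scale) by position of the IDR summit relative to the nearest TSS (x axis, bp, negative is upstream, bins of 25 bp), for the 37 bound large subunit genes above and all 2064 bound protein-coding genes below. The line marks the start site. The members gather at the start, with a median of -9 bp, and all bound genes gather upstream, with a median of -137 bp.

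The position recurred in each replicate. Over the bound members with a summit among the strongest peaks of that replicate, the median was -15 in replicate 1 (37 members), -14.5 in replicate 2 (34) and -9 in replicate 3 (26), against -129, -132 and -156 for bound protein-coding genes. For single genes the summit moved from the IDR summit by a median of 13, 5 and 10.5 bp in replicates 1, 2 and 3. RpL23A had its summit at -60 in the IDR list and at -60, -60 and -46 in replicates 1, 2 and 3, and RpL7 at -45 and at -47, -39 and -44. RpL6 differed most, with -80 in the IDR list and 92, -80 and 86 in replicates 1, 2 and 3. The base composition under the summits also differed, with a median of 45.5% G and C over 101 bp, against 32.7% for all bound protein-coding genes and 48.5% for bound small subunit genes. Whether base composition has a part in the position or strength of the peaks was not tested.

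Many bound members had a start of another gene near the summit, about as often as all bound protein-coding genes, which bears on the word bound. For 20 of 37 (54.1%) the summit was also within 500 bp of a start of another gene of any type, against 52.8% of bound protein-coding genes. A gene facing away from the member within 1000 bp upstream was found at 27 of 37 bound members (73.0%) and 7 of 11 unbound members (63.6%), against 38.2% of all protein-coding genes and 59.4% of the bound ones. Within 500 bp it was found at 51.4% of bound and 18.2% of unbound members, against 28.4% of all and 47.4% of bound protein-coding genes. With 11 unbound members, each gene moves their share by much, and no test was made. Close facing starts were those of RpL7 with Ripalpha, which encodes a protein that interacts with replication protein A, 30 bp apart, and RpL13 with Dref, which encodes the factor that binds TATCGATA, 84 bp apart. RpLP0 with CG7130 and RpL14 with the elongation factor gene Nelf-E were 111 and 127 bp apart. The unbound RpL29 also had a close facing start, that of Sgf29 at 122 bp. With each summit given to its nearest gene alone, 36 members were bound, and RpL34b, whose summit lay nearer the start of CG8132, was the member lost.

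A pyrimidine start, here CTTT or CTTC on the gene's strand within 10 bp of any annotated TSS, was present at 35 of 37 bound members (94.6%) and 9 of 11 unbound members (81.8%), against 22.4% of all protein-coding genes and 31.0% of the bound ones. At the first TSS alone it was present at 64.9% of bound and 54.5% of unbound members, against 16.8% of all and 18.9% of bound protein-coding genes. RpL10Aa, RpL12, RpL17 and RpL26 had none at any annotated start. At the start nearest the summit, 31 of the 37 bound members had such a run, which was 4 to 25 bases long with a median of 13. From the first base of the run to the summit the median distance was 14 bp upstream (a signed value of -14), with quartiles of -51.5 and 1. Those distances ran from -148 at RpL34b to 52 at RpL9, so summits lay on both sides of the runs.

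Other motifs were searched on both strands from 250 bases before to 50 after the first TSS. Beside each are given the share among all protein-coding promoters and then that among bound protein-coding genes. TATCGATA, the DNA replication-related element that Dref binds, was found in 9 of 37 bound members (24.3%) and 3 of 11 unbound members (27.3%), against 9.37% of all. GGTCACAC is the core of the promoter element known as motif 1. It was found in 8 bound members (21.6%) and 0 unbound members, against 7.71% and 10.9%. The 8 were RpL6, RpL7, RpL19, RpL27, RpL27A, RpL30, RpL37A and RpLP1. With 11 unbound members and a share of 7.71% over all genes, the count of 0 says little. TATAAA was found in 45.9% of bound and 54.5% of unbound members, against 45.9% and 46.1%. GAGAG was found in 21.6% of bound and 27.3% of unbound members, against 29.8% and 33.6%. CAGCTG was found in 2.70% of bound and 9.09% of unbound members, against 17.7% and 21.7%. These 5 motifs can overlap pyrimidine runs or each other, and a match is a description of letters, not a site.

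A further pair of motifs was chosen after reading these promoters, so their shares are a description of how they were chosen. AACAGCAC was found in 5 bound members (RpL9, RpL11, RpL18, RpL24 and RpL35A, 13.5%) and in RpL29 among the unbound (9.09%). The share was 1.48% of all protein-coding promoters and 2.71% of bound protein-coding genes. CCACACT was found in 7 bound members (RpL8, RpL11, RpL18, RpL24, RpL31, RpL35A and RpLP2, 18.9%) and in RpL21 and RpL40 among the unbound (18.2%), against 4.53% and 6.01%. Both were found in RpL11, RpL18, RpL24 and RpL35A, all 4 of which were bound, as were 77.1% of the 48 members. A count of 4 genes cannot be told apart from that share.

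**Figure D5:**
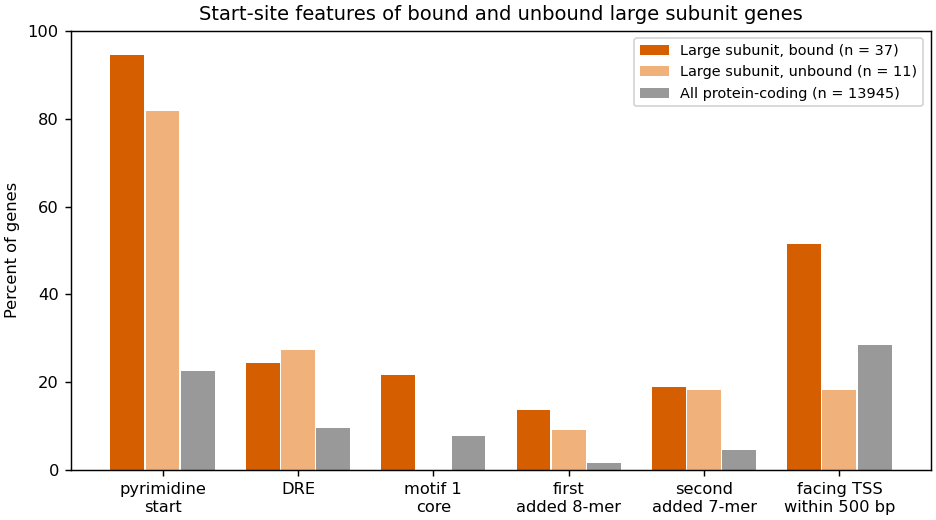
Percent of genes (y axis) with a pyrimidine start at any TSS, the DNA replication-related element (DRE), the motif 1 core, the first motif added after reading the promoters (8 bases), the second (7 bases) and a facing TSS within 500 bp, for the 37 bound and 11 unbound large subunit genes and all 13945 protein-coding genes. Of the features drawn, the motif 1 core (21.6% against 0) and the facing TSS (51.4% against 18.2%) had the widest gap between bound and unbound members. These gaps were not tested and rest on 11 unbound genes. Within 1000 bp, the main setting, the facing TSS was found at 73.0% and 63.6%. Among all bound protein-coding genes, 47.4% had one within 500 bp. The pyrimidine start was frequent in both bound and unbound members (94.6% and 81.8%).

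Small nucleolar RNA genes, which guide the modification of ribosomal RNA, lie on the same strand inside 12 of 37 bound members (32.4%) and 4 of 11 unbound members (36.4%). The share over all protein-coding genes is not given here, so these counts cannot be set against a background. Bound members had a median gene length of 1387 bp and unbound members 1037 bp. Gene lengths overlapped widely and ran from 520 to 3280 bp among bound and from 637 to 4606 bp among unbound members.

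Among other genes of the ribosome, 23 of 38 small subunit genes were bound (60.5%, interval 43.4% to 76.0%), against the background of 14.8%. In replicates 1, 2 and 3 alone, 28, 23 and 15 of them were bound, against 16.4%, 16.0% and 12.6% of all genes, and 14 were bound in every replicate (36.8%, against 8.88%). The intervals of both subunits take genes as independent draws within a list, and the difference between the subunits was not tested. The small subunit summits lay at a median of -13 bp with a median distance of 29 bp, so they too were near the start. RpS20 had IDR rank 22, RpS24 325 and RpS10b 467, and RpS20 and RpS24 thus ranked ahead of every bound large subunit gene. Mitochondrial large subunit genes, whose proteins serve the ribosome of the mitochondrion, were bound in 8 of 47 cases (17.0%, interval 7.65% to 30.8%), near the background, with a median summit position of -145.5 bp.

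Of 29 genes listed for ribosome biogenesis, 11 were bound (37.9%, interval 20.7% to 57.7%), against 14.8% of all protein-coding genes. In replicates 1, 2 and 3 alone, 13, 13 and 8 were bound, against 16.4%, 16.0% and 12.6%, and 6 were bound in every replicate (20.7%, against 8.88%). The list holds Rrp1, whose symbol in Drosophila stands for a DNA repair protein (IDR rank 1036), and without it 10 of 28 were bound (35.7%, interval 18.6% to 55.9%), with 12, 12 and 7 in the replicates alone and 5 in every replicate. Ns2, which encodes a nucleostemin family GTPase, had IDR rank 272 and a summit at -210, and eIF6, which keeps the subunits apart, had IDR rank 370 and a summit at -111. Nmd3, the export adaptor of the large subunit, had IDR rank 2657 and a summit at -165. The others were nop5 (1971), Non3 (2520), Nopp140 (2860), hoip (2872), l(3)72Dn (3186), Fib (4055), which encodes the methyltransferase fibrillarin, and Nnp-1 (4207). The IDR summits of the bound biogenesis genes lay upstream of the start, between -418 at hoip and -69 at Fib. NHP2 was bound in every replicate, with ranks of 820, 862 and 1088 in replicates 1, 2 and 3. It had no entry in the pooled list, so it is not among the 11 bound in the IDR list.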

How the data were processed

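Peak lists of the 3 replicates, the pooled replicates and the IDR step were used on dm6. Per the readme texts deposited with the files, each list was called against a control alignment common to all replicates, so errors in the control recur in each. The aligner, peak caller, versions and IDR threshold were not given in the sources used here. The deposited signal of each peak, on a scale that the authors' files do not state, served to rank peaks within a list. The deposited −log10 q-value was not used. The summit is the deposited offset from the peak start, and positions count from 1.

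Start sites came from Ensembl release 115 and sequence from RefSeq, both of dm6. Facing genes start on the other strand upstream. Leaving out a replicate kept the IDR peaks matched within 200 bp in the strongest 4426 peaks of both others. Members are named, with values in all lists for the 12 of best rank, the unbound and the paralogs, except 1 that the rule takes and that is not reported here. Of 33 biogenesis entries, 4 (peno, NHP2L1, Bop1 and Nol9) were not matched. The members, gene lists and motifs were chosen with earlier results of these data known. The step that calls a gene bound was checked on simulated summits placed inside the window around start sites. That check bears on the code alone. Python 3.11.15, pandas 2.3.3, numpy 2.4.6, SciPy 1.17.1 and matplotlib 3.10.9 were used. The replicates are labelled biological, and no p-value is given.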

Additional observations from a re-analysis of the deposited data

How the results depend on the processing

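The count of 37 bound members was 37 with a window of 200 bp or the first TSS alone, 38 with 1000 bp, 36 with the nearest gene alone and 27 in the strongest 2213 peaks. The share of all protein-coding genes bound under these settings is not given here, so how far the members exceeded it there is unknown. Left-out replicates gave 25 to 34, with RpL7A and RpLP2 lost each time, beside 9.42% to 10.9% of all protein-coding genes. The replicate left out still shaped the IDR list, so these sets understate the spread. The count of 25 bound in every replicate became 18 with 2213 peaks a list and 33 with 8852, also without the share of all genes beside it.

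The median summit position of -9 bp was 1 with the first TSS alone, -14 in the strongest 2213 peaks, -18.5 and -14.5 in replicates 1 and 2 alone, and -15 to -11.5 with a replicate left out. The median rank of 1194 was 1686.5 in replicate 3 alone and 949 to 1068.5 with a replicate left out. The share with a facing gene, 73.0%, was 75.0% and 76.5% in replicates 1 and 2 alone, 73.1% to 76.5% with a replicate left out and 51.4% within 500 bp. The pyrimidine start share at the first TSS, 64.9%, was 54.1% within 5 bp. The following were added after seeing the data: for that share 94.6% at any TSS, 61.5% in replicate 3 alone and 60.0% to 64.7% with a replicate left out, and for the 23 bound small subunit genes 15 in replicate 3 alone and 14 to 20 with a replicate left out. The biogenesis count of 11 was 10 without Rrp1, also added later. The cause of these shifts was not tested. No paired analysis was possible because there is 1 group. The lists give no depth, so a missing peak does not show that a gene is free of the protein.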
